A study of Mus musculus with 20 samples.

Results

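The 10 genes described here code for parts of macroautophagy: the cargo receptors Optn and Sqstm1, the ATG8 proteins Gabarap, Gabarapl1, Gabarapl2, Map1lc3a and Map1lc3b, and the initiation genes Ulk1, Becn1 and Wipi1. They were chosen by name from the 54532 genes of the count table, and all 10 were present and were among the 18336 genes that passed the filter on low counts. RNA was sequenced from 1 brain hemisphere per library in mice of 4 genotypes, with 5 libraries each. The DKO mice lacked both Glb1 and Neu3, the Glb1KO mice lacked Glb1, the Neu3KO mice lacked Neu3, and the WT mice carried neither knockout. Glb1 encodes the beta-galactosidase of lysosomes, the enzyme that removes galactose from GM1 ganglioside, and Neu3 encodes a sialidase at the plasma membrane with gangliosides as substrates. The labels named The Jackson Laboratory as the source of healthy mice, and gave neither strain, age nor the design of the knockout alleles. They also did not say that each library was a separate animal, so the p-values measured the spread between these libraries.

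In macroautophagy a double membrane closes around cytoplasmic cargo and fuses with a lysosome, where the cargo is digested. The kinase ULK1 and the lipid kinase complex that holds Beclin 1 start the membrane, WIPI proteins bind the lipid that this complex makes, and ATG8 proteins are joined to a lipid of the growing membrane. Receptors such as optineurin and p62, the product of Sqstm1, tie ubiquitin-tagged cargo to the ATG8 proteins and are digested with it. In brain, blocked digestion in lysosomal storage disease is known to leave p62 and lipid-bound LC3 protein behind. The data here are transcript levels, and neither protein nor autophagic flux was measured.

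Total counts per library were 16682458 to 18525446 for DKO, 15734414 to 20391893 for Glb1KO, 15162311 to 25145806 for Neu3KO and 16649633 to 19212266 for WT. Glb1 was at 4.0 ± 1.07 CPM (read counts scaled to library size with TMM factors) in DKO and 3.38 ± 0.903 CPM in Glb1KO, against 20.2 ± 1.32 CPM in WT (SD, n = 5, exact permutation p = 0.00794 for both, two-sided). Neu3 was at 77.4% of its WT level in DKO and 74.4% in Neu3KO, and neither difference passed the exact permutation test (p = 0.23 for DKO and p = 0.151 for Neu3KO), so the counts did not check those labels. WT replicate 1 stood apart from the other libraries, with 1.27% of its reads on the ribosomal RNA gene CT010467.1, against 0.221% to 0.498% in the other 19. It was also the lowest WT library for Sqstm1 and for each of the ATG8 genes. By the first letter of the library identifier, 2 DKO, 2 Glb1KO, 1 Neu3KO and all 5 WT libraries had an E, 3 Glb1KO libraries an L, and 3 DKO and 4 Neu3KO libraries a W. The labels did not say what the letters mean, and since all WT libraries had an E the letter and the genotype overlapped in part.

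The 10 genes spanned a wide range of levels. In the deposited FPKM, which are scaled to gene length, Gabarapl1 was highest with a mean of 197.8 over the 20 libraries. Next were Sqstm1 at 120.4, Map1lc3a at 99.55, Gabarap at 54.32, Gabarapl2 at 44.63 and Map1lc3b at 26.0 FPKM. Ulk1 followed at 17.41, Becn1 at 8.768, Optn at 6.534 and Wipi1 at 5.874 FPKM. Over the 20 libraries the FPKM ranges overlapped between Sqstm1 and Map1lc3a, between Gabarap and Gabarapl2, between Becn1 and Optn, and between Optn and Wipi1. Gabarapl1, at 166.9 to 226.0 FPKM, lay above every other member in every library, and Map1lc3b and Ulk1 overlapped neither neighbour. The lengths used were 7517 bases for Map1lc3b and 7065 for Becn1, which include all annotated exons and lower their FPKM. The order differed between genotypes for the most changed genes: Optn averaged 8.954 ± 0.633 FPKM in DKO, just above Becn1 at 8.405 ± 0.565, whereas in WT Optn averaged 5.397 ± 0.577 FPKM, below Becn1 at 8.556 ± 0.224 and Wipi1 at 6.218 ± 0.595 (SD, n = 5).

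The contrast of DKO with WT is the one stated in the study's design. Optn, Gabarap, Map1lc3b and Sqstm1 were higher in DKO, Optn 1.65-fold, Gabarap 1.45-fold, Map1lc3b 1.14-fold and Sqstm1 1.11-fold, and none of the 10 genes was called lower. The 4 of 10 genes called stood beside a background of 29.0% of all tested genes called in this comparison, and of 14.0% called higher, by edgeR's quasi-likelihood test at an adjusted p of 0.05. The median log2 change was 0.035 over the 10 genes and -0.00323 over all genes tested. Groups that did not overlap, with every DKO library above every WT library, were found for Optn, Gabarap and Map1lc3b, against 9.28% of all tested genes. In RNA from whole tissue, a different number of cells of a type and a different amount of RNA per cell cannot be told apart.

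The genes of the 4 transcripts that were higher in DKO start in different sequence contexts. The sequence around each RefSeq transcription start is shown here beside the measured change. The windows are from RefSeq on GRCm38.p6 and hold 250 bases before and 50 after the RefSeq transcription start, written 5′ to 3′ on the gene's strand. They lie at chr2:5064068-5064367, minus strand for Optn, at chr11:69991120-69991419, plus strand for Gabarap, at chr8:121590188-121590487, plus strand for Map1lc3b and at chr11:50210771-50211070, minus strand for Sqstm1. By the gene bounds of the count table, Gabarap starts at 69991143, so most of its window lies inside the annotated gene. The annotated starts of Map1lc3b, 121590361, and of Sqstm1, 50210827, also lie within their windows. That of Optn, 5064051, lies outside its window. Capitals mark the only match to a searched motif.
Optn: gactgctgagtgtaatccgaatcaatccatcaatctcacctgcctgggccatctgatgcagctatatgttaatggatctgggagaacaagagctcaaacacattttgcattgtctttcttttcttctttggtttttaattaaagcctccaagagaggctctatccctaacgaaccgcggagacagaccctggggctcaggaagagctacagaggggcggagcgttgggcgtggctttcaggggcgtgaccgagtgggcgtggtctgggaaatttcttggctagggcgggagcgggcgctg
Gabarap: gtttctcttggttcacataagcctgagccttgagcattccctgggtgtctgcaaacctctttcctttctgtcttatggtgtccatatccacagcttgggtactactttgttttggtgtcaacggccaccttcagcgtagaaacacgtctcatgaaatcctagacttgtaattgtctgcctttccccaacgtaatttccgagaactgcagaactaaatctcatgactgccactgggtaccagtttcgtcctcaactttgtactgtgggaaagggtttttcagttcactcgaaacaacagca
Map1lc3b: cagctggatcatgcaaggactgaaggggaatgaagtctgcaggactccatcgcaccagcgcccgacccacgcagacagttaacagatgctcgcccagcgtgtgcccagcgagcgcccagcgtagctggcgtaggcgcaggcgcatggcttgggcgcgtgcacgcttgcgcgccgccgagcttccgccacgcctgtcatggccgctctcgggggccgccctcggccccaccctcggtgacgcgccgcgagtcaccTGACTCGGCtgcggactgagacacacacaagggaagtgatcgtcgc
Sqstm1: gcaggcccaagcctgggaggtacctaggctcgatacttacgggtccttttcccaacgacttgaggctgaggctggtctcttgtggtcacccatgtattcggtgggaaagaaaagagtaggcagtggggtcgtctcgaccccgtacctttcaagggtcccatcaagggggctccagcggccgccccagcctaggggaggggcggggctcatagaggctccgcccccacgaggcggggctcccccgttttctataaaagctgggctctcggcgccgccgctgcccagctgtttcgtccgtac

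Windows were matched for 8 of the 10 genes, all but Map1lc3a and Becn1. They were searched on both strands for the E-box (CACGTG), for the core of the site bound by TFEB and its relatives (TCACGTG), for a site of forkhead factors such as FOXO3 (TGTTTAC), and for the core of the antioxidant response element, the site of NRF2 (TGAC, then any 3 bases, then GC). The TFEB core contains the E-box, so those searches overlap. The antioxidant response core occurred once, in Map1lc3b, with its first base at position 5 after the start on the gene's strand, and 12.4% of 32851 windows of this kind held it. No window of the 8 held the E-box, the TFEB core or the forkhead site, which occurred in 7.15%, 3.77% and 3.65% of all windows. The base composition of the 4 printed windows differed, with 52.7% G and C in Optn, 45.7% in Gabarap, 68.0% in Map1lc3b and 63.3% in Sqstm1, against a median of 52.7% over all windows.

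Of the receptors, Optn encodes optineurin, which binds ubiquitin-tagged mitochondria, bacteria and protein aggregates and is mutated in familial amyotrophic lateral sclerosis and glaucoma. Optn (ENSMUSG00000026672, GRCm38 chromosome 2, from 5020642 to 5064051, minus strand) had 31.2, 31.4, 36.8, 35.0 and 34.8 CPM in DKO replicates 1 to 5, and 22.1, 23.0, 18.1, 18.4 and 20.7 CPM in WT replicates 1 to 5. All DKO libraries were above all WT libraries. Within DKO the 2 libraries with identifiers starting with E were the lowest and the 3 starting with W the highest. The log2 fold change was 0.72 (SE 0.09, 95% interval 0.55 to 0.90, adjusted p = 5.85e-08 by edgeR's quasi-likelihood test). The values rested on 531 to 671 reads per DKO library and 302 to 422 per WT library. Among libraries with identifiers starting with E the change was 0.61 (adjusted p = 0.00034), and the call held in all 29 alternatives tried. An antisense transcript annotated across 3854 bases of the gene, 4930551O13Rik, had 0.325 CPM on average.

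Optn was the 1 gene of the 10 for which a different effect of losing Neu3 with and without Glb1 was called. Its values were 28.0, 20.1, 26.0, 22.7 and 21.1 CPM in Glb1KO, and 22.0, 19.7, 20.2, 22.0 and 21.2 CPM in Neu3KO. Every DKO library was above every Glb1KO and every Neu3KO library, and both single knockouts overlapped WT. Its log2 fold change was 0.52 (SE 0.09, adjusted p = 3.69e-05) in DKO over Glb1KO and 0.69 (SE 0.09, adjusted p = 1.73e-07) in DKO over Neu3KO. Against WT the change was 0.20 (95% interval 0.03 to 0.38, adjusted p = 0.233) in Glb1KO and 0.04 (95% interval -0.14 to 0.21, adjusted p = 0.984) in Neu3KO, neither called. The interaction, which is the log2 change of DKO over Glb1KO minus that of Neu3KO over WT, was 0.48 on the log2 scale (SE 0.12, adjusted p = 0.0125). It was called for 1 of the 10 genes, beside 6.84% of all genes tested and 3.96% in the higher direction, and for Optn it held in all 27 alternatives. With the identifier letter as a term it was 0.60 (adjusted p = 0.00932). Among the genes not called, the interaction was -0.19 for Map1lc3a (95% interval -0.35 to -0.03, adjusted p = 0.195). For Becn1 it was -0.18 (95% interval -0.35 to -0.01, adjusted p = 0.239). The intervals of the remaining genes included no change.

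Sqstm1 encodes p62, which gathers ubiquitin-tagged proteins into condensates and also binds KEAP1, the repressor of NRF2. Sqstm1 (ENSMUSG00000015837, chromosome 11, from 50199366 to 50210827, minus strand) had 422.9, 438.1, 448.4, 409.6 and 462.4 CPM in DKO, and 365.0, 406.5, 408.1, 413.6 and 375.3 CPM in WT. The groups overlapped in DKO replicate 4 and WT replicate 4. The log2 fold change was 0.15 (SE 0.05, 95% interval 0.05 to 0.24, adjusted p = 0.0209). The call was lost without WT replicate 1 (0.12, adjusted p = 0.0598), without WT replicate 5 (0.13, adjusted p = 0.0621), with the identifier letter as a term (0.14, adjusted p = 0.095) and among identifiers starting with E (0.13, adjusted p = 0.189). In Glb1KO, Sqstm1 ranged from 391.6 to 423.3 CPM and in Neu3KO from 360.7 to 413.4 CPM. Its change against WT was 0.05 in Glb1KO (95% interval -0.05 to 0.15) and -0.01 in Neu3KO (95% interval -0.11 to 0.09), and neither passed the test.

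**Figure D1:**
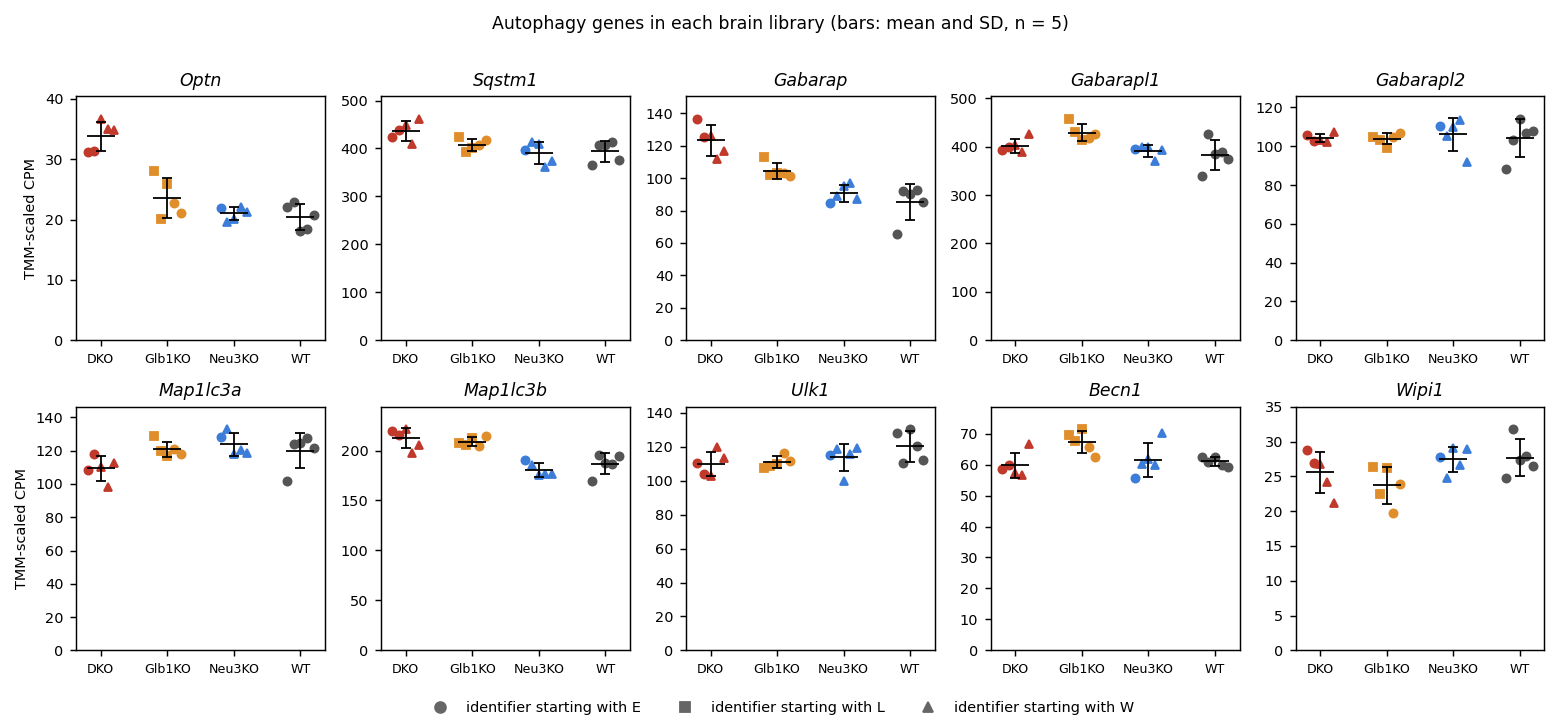
TMM-scaled CPM of the 10 genes in each library (points), by genotype on the x axis, with the group mean and SD as bars (n = 5); the marker shape gives the first letter of the library identifier, and every y axis starts at 0. Optn lies between 31.2 and 36.8 CPM in DKO, above all 15 other libraries, and the lowest Gabarap point is WT replicate 1 at 65.7 CPM.

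Of the ATG8 genes, Gabarap and Map1lc3b were higher in DKO and the other 3 were not called against WT. Gabarap encodes a protein first known for binding GABA-A receptors, which also binds ULK1 and many receptors on the autophagosome. Gabarap (ENSMUSG00000018567, chromosome 11, from 69991143 to 69994951, plus strand) had 136.8, 125.3, 126.3, 111.6 and 116.8 CPM in DKO, 113.2, 102.2, 103.2, 102.9 and 101.3 CPM in Glb1KO, 84.7, 89.1, 95.2, 96.9 and 87.4 CPM in Neu3KO and 65.7, 91.9, 90.5, 92.8 and 85.1 CPM in WT. Every DKO and every Glb1KO library was above every WT library, DKO and Glb1KO overlapped in 1 library of each, and Neu3KO overlapped WT. The log2 fold change of DKO over WT was 0.53 (SE 0.07, adjusted p = 3.99e-07), and without WT replicate 1, the lowest library, it was 0.45 (adjusted p = 2.45e-07). That of Glb1KO over WT was 0.30 (SE 0.07, adjusted p = 0.00931), and that of DKO over Glb1KO was 0.24 (SE 0.07, adjusted p = 0.0166). The difference between DKO and Glb1KO was no longer called without DKO replicate 1, the highest library (0.20, adjusted p = 0.0559), with the identifier letter as a term (0.30, adjusted p = 0.0963) or among identifiers starting with E (0.36, adjusted p = 0.121). The interaction was 0.15 (95% interval -0.05 to 0.34, adjusted p = 0.471), so no difference in the effect of Neu3 loss was shown for Gabarap.

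Map1lc3b encodes LC3B, whose lipid-bound form is the usual protein marker of autophagosomes. Map1lc3b (ENSMUSG00000031812, chromosome 8, from 121590361 to 121598760, plus strand) had 219.7, 216.0, 221.8, 197.9 and 205.6 CPM in DKO, 207.5, 205.2, 212.3, 204.2 and 214.5 CPM in Glb1KO, 190.3, 185.0, 175.3, 176.2 and 176.0 CPM in Neu3KO and 169.0, 195.4, 187.5, 186.8 and 194.1 CPM in WT. The DKO and Glb1KO libraries shared a range and lay above all Neu3KO and WT libraries. The log2 fold change was 0.19 (SE 0.05, adjusted p = 0.0032) in DKO over WT, and held in all 29 alternatives. It was 0.16 (SE 0.05, adjusted p = 0.0479) in Glb1KO over WT, a call lost in 15 of 29 alternatives, among them the one without WT replicate 1 (0.13, adjusted p = 0.148). DKO over Glb1KO was 0.02 (95% interval -0.07 to 0.12). Zcchc14, on the opposite strand, overlaps the gene in 58 bases and had 127 CPM on average and a log2 change of -0.07 in DKO over WT (adjusted p = 0.442). Gm20388, a protein-coding gene annotated on the same strand, overlaps it in 8400 bases and had 0.0 CPM on average.

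Map1lc3a encodes LC3A, the other LC3 protein among the 10 genes. Map1lc3a (ENSMUSG00000027602, chromosome 2, from 155276297 to 155278073, plus strand) had 108.1, 117.9, 110.1, 98.0 and 112.7 CPM in DKO, 128.6, 119.7, 116.9, 120.9 and 118.2 CPM in Glb1KO, 128.3, 133.2, 117.9, 120.7 and 118.6 CPM in Neu3KO and 101.9, 124.0, 124.8, 127.9 and 121.6 CPM in WT. The DKO libraries were among the lowest, and of the WT libraries only replicate 1 fell within their range. The log2 fold change against WT was -0.13 (95% interval -0.25 to -0.02, adjusted p = 0.0854), not called. Without WT replicate 1 it was -0.19 (adjusted p = 0.00805), and without DKO replicate 2 it was -0.16 (adjusted p = 0.0471).

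Gabarapl1 and Gabarapl2 encode 2 further ATG8 proteins of the GABARAP subfamily, and Gabarapl2 is also known as GATE-16. Gabarapl1 ranged from 388.0 to 426.4 CPM in DKO and from 413.3 to 458.2 CPM in Glb1KO. It lay at 371.1 to 399.8 CPM in Neu3KO and at 339.5 to 426.3 CPM in WT. Its log2 change was 0.07 in DKO over WT (95% interval -0.03 to 0.17, adjusted p = 0.313). In Glb1KO over WT it was 0.17 (95% interval 0.07 to 0.26, adjusted p = 0.0529), which missed the threshold. Of 29 alternatives, 10 called it, among them DESeq2 (adjusted p = 0.0259), while without WT replicate 1 it was 0.12 (adjusted p = 0.17) and with the identifier letter as a term 0.14 (adjusted p = 0.481). Gabarapl2 averaged 104.1 ± 2.12 CPM in DKO, 103.8 ± 2.84 CPM in Glb1KO, 106.2 ± 8.44 CPM in Neu3KO and 104.2 ± 9.72 CPM in WT (SD, n = 5). Its log2 change of DKO over WT was -0.00 with a 95% interval from -0.12 to 0.12.

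The make-up of the ATG8 transcripts was described by the share of each gene in their sum. The summed FPKM of the 5 ATG8 genes was 429.3 ± 14.7 in DKO, 441.3 ± 15.0 in Glb1KO, 415.0 ± 8.64 in Neu3KO and 403.8 ± 33.3 in WT (SD, n = 5). Gabarap made up 14.3% to 17.0% of the sum in DKO, 12.4% to 13.0% in Glb1KO, 10.9% to 12.8% in Neu3KO and 10.1% to 11.9% in WT. Map1lc3a made up 20.4% to 22.7% in DKO, 22.7% to 23.4% in Glb1KO, 23.7% to 26.3% in Neu3KO and 24.0% to 25.6% in WT. The DKO shares thus lay outside the WT range for both genes, above it for Gabarap and below it for Map1lc3a. The shares of a library add up to a fixed total, so a higher Gabarap share by itself lowers the others. In CPM, Map1lc3a overlapped between DKO and WT and was not called (adjusted p = 0.0854). No background over other genes was computed for these shares. Gabarapl1 was the largest component in every library, at 44.8% to 48.5% over all of them. The ratio of Gabarap to Gabarapl2, in CPM, was 1.18 ± 0.0896 in DKO, 1.01 ± 0.0522 in Glb1KO, 0.857 ± 0.0649 in Neu3KO and 0.816 ± 0.0605 in WT (SD, n = 5), a ratio that no scaling factor can change.

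**Figure D2:**
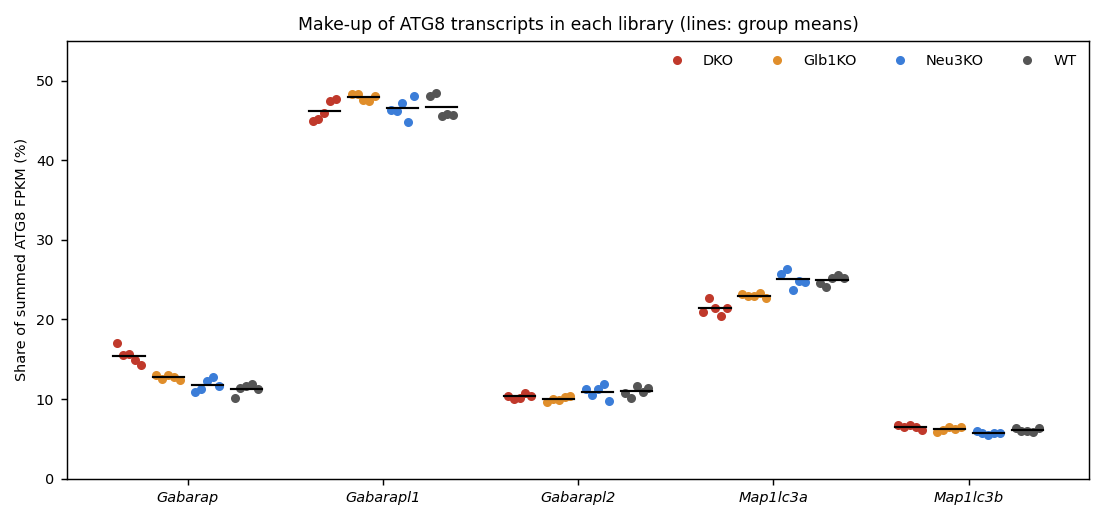
Share of each ATG8 gene in the summed FPKM of the 5 ATG8 genes, in percent, for each library (points), with group means as lines; genotypes stand side by side within each gene, in the order DKO, Glb1KO, Neu3KO and WT. Gabarap takes 14.3% to 17.0% in DKO and 10.1% to 11.9% in WT, and Map1lc3a 20.4% to 22.7% in DKO and 24.0% to 25.6% in WT.

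The initiation genes were not called in DKO against WT. Ulk1, the kinase that starts autophagosome formation, averaged 110.1 ± 7.08 CPM in DKO and 120.4 ± 9.04 CPM in WT (SD, n = 5), a log2 change of -0.13 (95% interval -0.24 to -0.02, adjusted p = 0.0951). The groups overlapped, and the change was called in 1 of 29 alternatives, without WT replicate 2 (-0.16, adjusted p = 0.0454). Becn1, which encodes Beclin 1 of the class III phosphatidylinositol 3-kinase complex, averaged 59.78 ± 3.97 CPM in DKO and 61.02 ± 1.56 CPM in WT (SD, n = 5), a log2 change of -0.03 (95% interval -0.15 to 0.09). Wipi1, which encodes a protein that binds phosphatidylinositol 3-phosphate, averaged 25.6 ± 2.95 CPM in DKO and 27.68 ± 2.62 CPM in WT (SD, n = 5), a log2 change of -0.11 (95% interval -0.29 to 0.06). Becn1 ranged from 56.57 to 66.52 CPM in DKO and from 62.53 to 71.6 CPM in Glb1KO, a log2 change of -0.17 that just missed the threshold (adjusted p = 0.0503) and that DESeq2 called (adjusted p = 0.0475). Cntd1, on the opposite strand of Becn1 across 10366 bases, had 0.348 CPM on average.

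In Glb1KO against WT, 2 of the 10 genes, Gabarap and Map1lc3b, were called, both higher, beside a background of 3.96% of genes called and 1.75% called higher. The same 2 genes had every Glb1KO library above every WT library, against 2.60% of all genes tested. With the identifier letter as a term, neither was called, Gabarap standing at 0.26 (adjusted p = 0.242) and Map1lc3b at 0.17 (adjusted p = 0.272). The SE was then 0.09 for Gabarap and 0.06 for Map1lc3b, against 0.07 and 0.05 without the term. The letter L occurred only in Glb1KO, so that fit set only the Glb1KO libraries with an E against WT. The uncalled changes of the remaining genes ran from -0.22 for Wipi1 (adjusted p = 0.18) to 0.20 for Optn.

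In Neu3KO against WT, none of the 10 genes was called, and neither was any other gene by edgeR's quasi-likelihood test (0% of 18336 genes), although 1105 genes had an unadjusted p under 0.05 and DESeq2 called 2. The changes of the 10 genes ran from -0.08 for Ulk1 (95% interval -0.19 to 0.03) to 0.09 for Gabarap (95% interval -0.05 to 0.23), with adjusted p-values of 0.908 or more. Changes as large as that of Gabarap in Glb1KO, at 0.30, lay outside all of the 10 intervals.

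DKO was also compared with each single knockout. DKO over Glb1KO called Optn and Gabarap, both higher, beside a background of 15.7% of genes called and 8.41% called higher, and the 5 DKO libraries lay above the 5 Glb1KO libraries for Optn alone, against 6.78% of genes. The Gabarap call was lost under 3 of 29 alternatives, those given with its values above. DKO over Neu3KO called 5 of 10 genes, beside 25.1% of all genes. Optn, Gabarap (0.45, adjusted p = 9.77e-06), Map1lc3b (0.23, adjusted p = 0.000364) and Sqstm1 (0.16, adjusted p = 0.0154) were higher, beside 12.3% of genes called higher, and Map1lc3a was lower (-0.18, SE 0.06, adjusted p = 0.0222), beside 12.8% of genes called lower. For Optn, Gabarap and Map1lc3b the DKO libraries lay above all Neu3KO libraries, against 8.43% of genes, and for Map1lc3a they did not rise above any, the highest DKO value of 117.9 CPM standing just under the lowest Neu3KO value, a gap in that direction found for 7.20% of genes. The comparisons of DKO share the DKO libraries, so their calls are not independent of each other. Among libraries with identifiers starting with W, of which there were 3 in DKO and 4 in Neu3KO, a restriction chosen after the data were seen, Optn (0.79), Gabarap (0.37) and Map1lc3b (0.24) stayed called, and Sqstm1 (adjusted p = 0.0573) and Map1lc3a (adjusted p = 0.0817) did not.

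**Figure D3:**
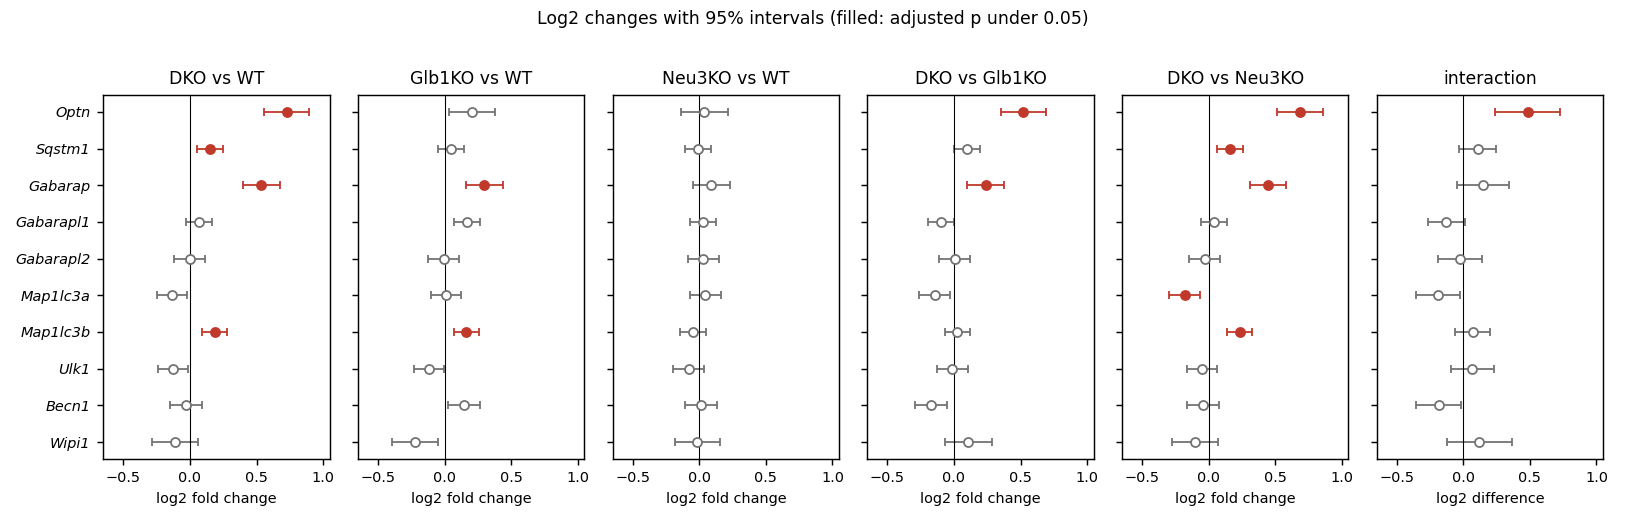
Log2 change of each of the 10 genes in the 5 comparisons and the interaction (x axis), with 95% intervals as bars; filled red points have an adjusted p under 0.05 and open grey points do not. Optn is called in 4 of the 6 panels, Gabarap in 4 and Map1lc3b in 3, and no point is called in Neu3KO over WT.

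The rest of the pathway was read from lists by step. Beside the counts of these lists in DKO against WT stand 14.0% of all genes called higher and 15.1% called lower. Of 17 other cargo receptors, 1 was called higher and 1 lower in DKO against WT. Tollip, a ubiquitin-binding receptor, was at 0.16 (adjusted p = 0.0117), and Wdfy3, which encodes the adaptor ALFY that works with p62 on protein aggregates, was at -0.28 (adjusted p = 0.000314). Rtn3 and Fkbp8, the most abundant of the list and receptors for endoplasmic reticulum and mitochondria, were at -0.09 and 0.06 and not called. Of 11 genes that process ATG8 proteins and join them to lipid, none was higher and 1 was lower, the ATG8 protease gene Atg4d (-0.31, adjusted p = 0.00274). Atg12 and Atg3, of the conjugation machinery, were at -0.10 and 0.16 and not called. The list medians were 0.03 for the receptors and -0.03 for the conjugation genes, beside -0.00323 over all genes tested.

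Of the other initiation and nucleation genes, 6 of 20 were lower and 1 was higher in DKO against WT, with a list median of -0.04. Of all genes tested, 15.1% were called lower and 14.0% higher. Atg9a, the membrane protein of the vesicles that seed the autophagosome, was at -0.25 (SE 0.05, adjusted p = 0.000514). Vmp1, a lipid scramblase of the endoplasmic reticulum, was at -0.25 (adjusted p = 0.00126), the lipid transfer gene Atg2a at -0.20 and Rubcn, a negative regulator of the lipid kinase complex, at -0.18. Atg13 and Rb1cc1, subunits of the ULK1 complex, were at -0.13 and -0.18 (adjusted p = 0.0394 and 0.023), and Ulk2 was at -0.03 and not called. The gene that was higher was Wdr45b, a WIPI family member (0.20, adjusted p = 0.0187). Of 18 upstream regulators, 3 were lower, the mTORC1 genes Rptor (-0.30, adjusted p = 2.28e-05) and Mtor (-0.14, adjusted p = 0.0388) and the inhibitor of that complex Tsc2 (-0.16), and 1 was higher, Tsc1 (0.20, adjusted p = 0.00886), the partner of Tsc2. Ddit4 and Foxo3, the most abundant of the list, were at 0.08 and 0.06 and not called. In Glb1KO and in Neu3KO against WT, none of the genes of these initiation and upstream lists was called.

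Of the genes for fusion of autophagosomes with lysosomes, 6 of 15 were higher and none lower in DKO against WT, with a list median of 0.10, beside 14.0% of all genes called higher and 15.1% called lower. Vamp8, a SNARE protein of lysosomes, was at 0.82 (SE 0.15, adjusted p = 5.25e-05), and its partner Stx17, the SNARE protein of the autophagosome, at 0.35 (adjusted p = 0.0013). Vps11, a core subunit of the tethering complexes that act at the lysosome, was at 0.37 (adjusted p = 1.24e-05), and Rab7, the GTPase that recruits tethers, at 0.23 (adjusted p = 0.000251). Ykt6 and Vps18 were at 0.23 and 0.16. Rab7 was also higher in Glb1KO over WT, at 0.21 (adjusted p = 0.00438), 1 of 2 genes of the list called there. Vps33a, the next most abundant of the list, was at 0.07 in DKO over WT and not called.

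Of 10 genes of the KEAP1-NRF2 pathway, to which p62 is linked, 5 were higher and none was lower in DKO against WT, with a list median of 0.20, beside the same 14.0% and 15.1% of all genes. Hmox1, the heme oxygenase gene, was at 2.16 (SE 0.14, adjusted p = 1.9e-14), the quinone reductase gene Nqo1 at 0.90, Nfe2l2, which encodes NRF2 itself, at 0.76 (adjusted p = 1.9e-07), the cystine transporter gene Slc7a11 at 0.74 and G6pdx at 0.25. Srxn1 and Gclc, the most abundant of the list and both NRF2 targets, were at 0.01 and 0.02 and not called. Hmox1 was also higher in Glb1KO over WT, at 0.78 (adjusted p = 0.000538). The interaction was called for 5 of the 10 genes, all in the higher direction, beside 6.84% of all genes called and 3.96% called in that direction.

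**Figure D4:**
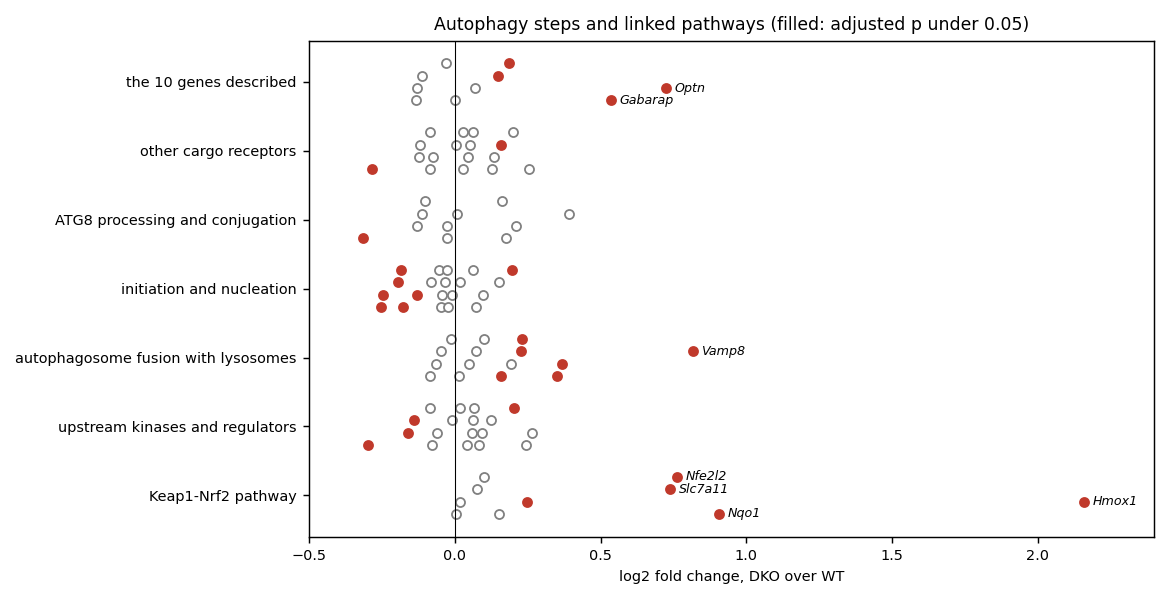
Log2 fold change of DKO over WT (x axis) of the 10 genes described and of the genes of 6 pathway lists (rows), 1 point per gene; filled red points have an adjusted p under 0.05, and called genes beyond 0.5 are named. Filled points lie to the right in the fusion and KEAP1-NRF2 rows and mostly to the left in the initiation row.

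Markers of cell types moved with the genotypes beside these genes. In DKO over WT, 14.0% of all genes tested were called higher and 15.1% lower. The 8 markers of activated microglia, the brain's own macrophages, summed to 766.5 to 902.7 CPM in DKO, 104.8 to 147.3 CPM in Glb1KO, 30.47 to 36.4 CPM in Neu3KO and 20.22 to 27.72 CPM in WT, and all 8 were called higher in DKO over WT. The 8 general microglia and macrophage markers summed to 659.9 to 822.6 CPM in DKO and 224.3 to 278.0 CPM in WT, with 6 higher. Their list median was 1.27. C1qa and Ctss, the most abundant, were at 2.62 and 2.54, and P2ry12 and Tmem119 were at 0.21 and 0.19 and not called. The 6 markers of reactive astrocytes summed to 4268 to 5073 CPM in DKO and 229.2 to 299.5 CPM in WT, all 6 higher, with Gfap at 4.36. The 6 general astrocyte markers summed to 4406 to 4773 CPM in DKO and 3847 to 3877 CPM in WT, with 5 higher and Slc1a2 at -0.01 and not called.

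Markers of other cells were lower or differed less. Beside their counts stand 15.1% of all genes called lower in DKO against WT and 3.96% called in Glb1KO against WT. The 7 oligodendrocyte markers summed to 2968 to 3922 CPM in DKO, 2910 to 3378 CPM in Glb1KO, 4622 to 5407 CPM in Neu3KO and 4703 to 5337 CPM in WT, all 7 lower in DKO and in Glb1KO against WT. The 6 neuron markers summed to 3430 to 3803 CPM in DKO and 3892 to 4218 CPM in WT, with 2 called lower and Snap25 and Tubb3, the most abundant, at -0.09 and -0.14 and not called. The 6 hindbrain neuron markers, of which 5 were tested, summed to 21.06 to 39.29 CPM in DKO, 14.15 to 31.9 CPM in Glb1KO, 13.86 to 74.6 CPM in Neu3KO and 61.17 to 96.62 CPM in WT, and 3 were called lower in DKO. Endothelial, choroid plexus and blood markers overlapped between DKO and WT in their sums, with 1 endothelial marker lower. No listed marker was at 0 in every library of a genotype. The part of the cell types or of the dissected region in the changes of the 10 genes was not tested.

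Likeness of pattern was measured by Pearson's r of log2 CPM over the 20 libraries, among the protein-coding genes tested. It was taken for the 4 genes with the smallest adjusted p in DKO over WT. Most like Optn were Siglec1 (r = 0.947), Cd63 (0.939) and Cyba (0.935), which were higher in DKO by 3.74, 1.96 and 3.00 on the log2 scale. Most like Gabarap were Arl6ip1 (0.949), Plin2 (0.948) and Fcrls (0.944), and most like Map1lc3b were Atp6v0d1 (0.915), Atp6v1b2 (0.905) and Mif (0.903). Atp6v0d1 and Atp6v1b2 encode subunits of the proton pump that acidifies lysosomes. Most like Sqstm1 were Ykt6 (0.923), Itm2c (0.895) and Akr1a1 (0.895). These values are carried by the differences between genotypes, which the libraries of a genotype share.

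After the genotype means were subtracted the nearest genes were different ones. They were Dync1li2 (r = 0.776) for Optn, Prdx2 (0.915) for Gabarap, Ndufa10 (0.908) for Map1lc3b and Eif3g (0.87) for Sqstm1, each over 20 libraries. These r include WT replicate 1, which stood apart, and the nearest genes were not sought without it. Among the 10 genes themselves, r within genotypes ran from -0.535 to 0.735 over 45 pairs with a median of 0.131. Sqstm1 and Gabarapl1 were the pair with the highest value, and Ulk1 and Wipi1 the pair with the lowest. Without WT replicate 1 the median was 0.0663. Optn and Gabarap, the genes most raised in DKO, had r = -0.148 within genotypes, and without WT replicate 1 r = 0.0511.

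The authors' deposited table of DKO against WT, made with all genes, held values for the same 10 genes. In the authors' deposited table Optn stood at a log2 fold change of 0.73 (adjusted p = 3.9e-14), Gabarap at 0.54 (adjusted p = 3.1e-08), Map1lc3b at 0.19 (adjusted p = 0.00454) and Sqstm1 at 0.15 (adjusted p = 0.023). The other 6 genes were between -0.13 and 0.07 with adjusted p of 0.178 or more in the authors' deposited table. It rests on the same DKO and WT libraries, so it is not independent of the values above.

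**Figure D5:**
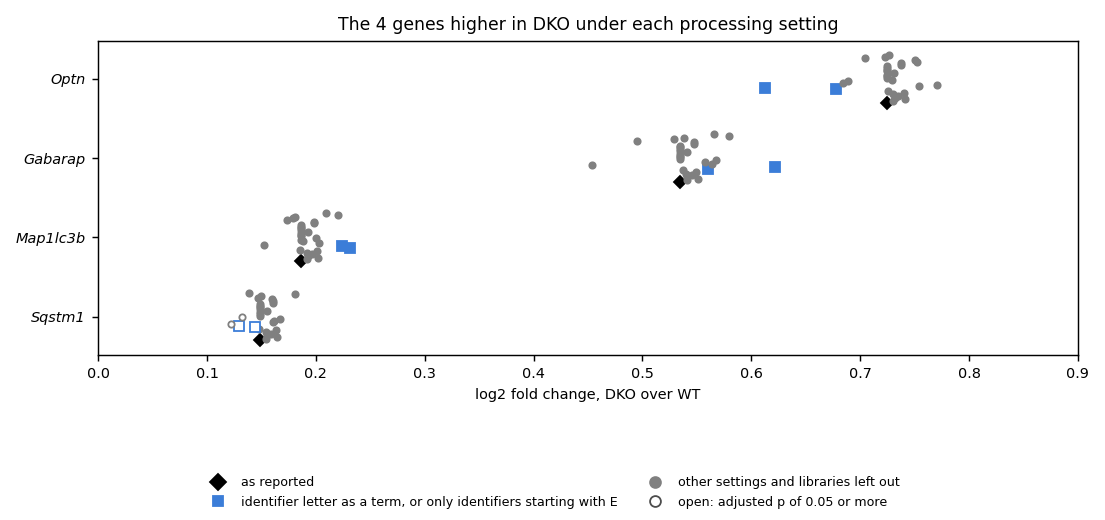
Log2 fold change of DKO over WT (x axis) of the 4 genes higher in DKO, as reported (diamond), with the identifier letter as a term or among identifiers starting with E (squares), and under the other settings and with each library left out (circles); open symbols have an adjusted p of 0.05 or more. Optn stays between 0.61 and 0.77, Gabarap between 0.45 and 0.62 and Map1lc3b between 0.15 and 0.23, all filled, and Sqstm1 between 0.12 and 0.18 with 4 open symbols.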

How the data were processed

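Polyadenylated RNA of 20 brain libraries, 5 per genotype, was sequenced. The authors deposited raw read counts per gene, FPKM, and a comparison of DKO with WT with log2 fold changes and p-values, per the file headers. The gene lengths of the table, in bases, are those the authors deposited. Tools listed in the submitters' processing notes were featureCounts 1.5.0-p3, HISAT2 2.0.5, DESeq2 1.20.0 and fastp, with GRCm38 and mm10 as builds, without roles or strand setting, so reads of overlapping genes on opposite strands could not be told apart. The deposited FPKM served for levels between genes and counts for tests. The 30 per-library columns inside the authors' comparison table were not used. Genotype and replicate came from the labels.

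Counts were scaled with TMM factors and 18336 genes kept by edgeR's filter. The fit took all 20 libraries with 1 mean for each genotype, and was tested with edgeR 4.0.16 (robust quasi-likelihood F test, R 4.3.3) and adjusted by Benjamini-Hochberg over all genes tested at 0.05, with no fold minimum. Every adjusted p of the text without another source is from this test. SE were derived from the F statistic, and 95% intervals are normal intervals from them. CPM are TMM-scaled, and log2 CPM used a prior count of 2. The targeted genes were compared with exact two-sided permutation tests, for which the smallest p is 0.00794. Positions of genes were copied from the deposited table, and all 10 genes matched GENCODE M21. The fit was also run on simulated counts with known changes in DKO. These counts held no effect of the identifier letter and no outlying library, so that run says nothing about either. No 2 replicates of a genotype agreed within sampling noise, since the chi-square per degree of freedom over genes was 3.443 or more in 40 pairs. The pairs with WT replicate 1 had the highest values, 22.16 to 30.28, and the remaining pairs reached at most 14.32. Alternatives were other scaling factors and filters, DESeq2 1.42.0, fits of the compared groups alone, replicate number or identifier letter as a term, libraries of a single letter, and each library left out. The 10 genes, the pathway and marker lists and the tests were chosen with earlier results of these data known. From each pathway list the text names up to 4 genes with the smallest adjusted p past the threshold in DKO over WT and up to 2 with the highest FPKM, and from marker lists up to 2 with the highest FPKM. Rb1cc1, Wdr45b, Ykt6, Vps18 and G6pdx were added after their values were seen, to complete counts. P2ry12 and Tmem119 were added in the same way, as the uncalled markers of their list.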

Additional observations from a re-analysis of the deposited data

Results flagged for a closer look

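In 40 groups of 5 libraries, 10 genes in 4 genotypes, 5 values stood far from the rest of their group, and chance gives about 1 in 20 groups. The measure was the gap to the nearest value as a share of the group's range. The 10 genes share the same libraries, so the groups are not independent, and Gabarap and Map1lc3a were both flagged in WT replicate 1. Gabarap was at 113.2 CPM in Glb1KO replicate 1, above the 101.3 to 103.2 CPM of the other Glb1KO libraries. Gabarap was at 65.67 CPM in WT replicate 1, below the 85.08 to 92.78 CPM of the other WT libraries. Map1lc3a was at 101.9 CPM in WT replicate 1, below the 121.6 to 127.9 CPM of the others. Gabarapl1 was at 371.1 CPM in Neu3KO replicate 4, below 392.9 to 399.8 CPM in the others. Ulk1 was at 100.1 CPM in Neu3KO replicate 3, below 115.2 to 119.6 CPM in the others.

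For Optn, the log2 difference made by loss of Neu3 was higher in the absence of Glb1 than in its presence by 0.483 (SE 0.12, adjusted p = 0.0125 by edgeR's quasi-likelihood test of the interaction).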

How the results depend on the processing

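The calls of Optn, of Gabarap and Map1lc3b in DKO over WT and over Neu3KO, and of the Optn interaction held under every alternative run. Some alternatives left out a library of a genotype outside the comparison, and these can change it only through the shared spread and scaling. Of 1710 alternative log2 changes of the 10 genes, 62 changed sign, 29 lost a call and 19 gained one. No gene changed sign in a comparison in which it was called.

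With the identifier letter as a term, or among identifiers starting with E, the genes called fell to 3363 and 2631 in DKO over WT (5323 as reported), to 315 and 320 in Glb1KO over WT (726), and to 1203 and 939 in DKO over Glb1KO (2879). Of the 10 genes, 0 and 0 were then called in Glb1KO over WT (2 as reported), and 1 and 1 in DKO over Glb1KO (2 as reported). The subset starting with E holds fewer libraries. The letter L occurred only in Glb1KO, so with the letter term Glb1KO over WT rested on 2 Glb1KO and 5 WT libraries with an E. The settings thus made nearly the same comparison there, and the log2 change of Gabarap was 0.262 in both. They are not independent checks of Glb1KO over WT. For the other comparisons with the letter term, the cause of the lower counts was not tested. Among identifiers starting with W, 3 of 10 were called in DKO over Neu3KO, against 5 with all libraries. In Neu3KO over WT, 26 genes were called with no filter, 2 with DESeq2 and 3 from those groups alone, against 0. Leaving out 1 library gave 0 to 1 there (1 without WT replicate 1 or 2, or DKO replicate 1 or 5), 1 to 3 of the 10 genes in Glb1KO over WT, 1 to 4 in DKO over Glb1KO (4 without WT replicate 1, 1 without DKO replicate 1) and 4 to 5 in DKO over Neu3KO. Map1lc3a in DKO over Neu3KO lost its call without Neu3KO replicate 1 (adjusted p = 0.0592) or 2 (adjusted p = 0.0723) or DKO replicate 4 (adjusted p = 0.109). Map1lc3b in Glb1KO over WT lost its call without WT replicates 1, 3, 4 or 5, Glb1KO replicates 1, 2, 3 or 5, Neu3KO replicates 1 or 2, or DKO replicate 2 (adjusted p from 0.0504 to 0.148). Gabarapl1 gained a call there without WT replicate 2, DKO replicates 4 or 5, Neu3KO replicate 4 or Glb1KO replicate 4 (adjusted p from 0.00886 to 0.049). In DKO over Glb1KO, Becn1 gained one without DKO replicate 5, Glb1KO replicate 5, WT replicate 1 or Neu3KO replicate 1 (adjusted p from 0.0226 to 0.0465), and Map1lc3a without WT replicate 1 (adjusted p = 0.0447).

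Replicate numbers did not pair the libraries: of 30 same-numbered pairs, r of the deviations ran from -0.129 to 0.0646 and 0 were over 0.1. With the replicate block, 1 of the 10 genes was called in Glb1KO over WT, since Map1lc3b lost its call.

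The sign changed only for log2 changes that were not called. Gabarapl2 in DKO over WT, at -0.000498, was 0.00523 with DESeq2 size factors, 0.0157 with upper-quartile factors, 0.00565 with no filter, 0.01 with the stricter filter, 0.00539 with DESeq2, 0.0144 from the compared groups, 0.00115 with the replicate block and 0.0162 with the letter term. In Glb1KO over WT it was 0.00561 with upper-quartile factors, 0.00301 with no filter, 0.000884 with the stricter filter and 0.0234 with the letter term and with E alone, and in DKO over Glb1KO -0.00723 with the letter term and -0.0239 with E alone. With the letter term Neu3KO over WT gave -0.0215 for Optn, 0.0139 for Map1lc3b, -0.0587 for Becn1 and 0.0927 for Wipi1. Map1lc3a in Glb1KO over WT was -0.00537 with the letter term and -0.00535 with E alone, and Wipi1 in DKO over WT was 0.00997 with E alone. Leaving out 1 library, Gabarapl2 ran from -0.0548 to 0.0349 in DKO over WT, -0.0593 to 0.0304 in Glb1KO over WT, -0.0259 to 0.0746 in Neu3KO over WT, -0.0118 to 0.0181 in DKO over Glb1KO, -0.0626 to 0.00624 in DKO over Neu3KO and -0.0592 to 0.0304 in the interaction. In Neu3KO over WT, Optn ran from -0.0027 to 0.083, Sqstm1 from -0.0361 to 0.0184, Gabarapl1 from -0.00874 to 0.0733, Map1lc3a from -0.00856 to 0.0686, Becn1 from -0.0417 to 0.0465 and Wipi1 from -0.0519 to 0.0424. Map1lc3a ran from -0.0436 to 0.0337 in Glb1KO over WT, Ulk1 from -0.0367 to 0.0213 in DKO over Glb1KO and Becn1 from -0.076 to 0.0244 in DKO over Neu3KO.

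By median FPKM, Wipi1 stood above Optn, and CPM per kilobase kept the order. Comparisons with Neu3KO among identifiers starting with E were not run, since it had 1 such library. Optn and Wipi1 had the fewest reads of the 10 genes, from 302 and 309 per library upward, and the largest SE, 0.09 in DKO over WT.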
